A study of Mus musculus with 3 samples.

Results

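The Notch pathway genes studied here are 3 ligands (*Dll4*, *Jag1*, *Jag2*), 2 receptors (*Notch1*, *Notch4*) and 5 targets (*Hey1*, *Hey2*, *Heyl*, *Nrarp*, *Hes1*) that endothelial cells (ECs) are known to use. They were taken by symbol from the gene table, and all 10 were found among its 33696 genes. Single-cell libraries of retinal cells from mice at postnatal day 6, enriched with CD31 and CD11b MicroBeads for ECs and microglia, were compared between 3 genotypes with 1 library each. The WT library came from wild-type mice, the *Tspan12* KO library from mice lacking *Tspan12*, a co-receptor component of Norrin signaling, and the *Ctnnb1* cKO library from *Ctnnb1* loxP/loxP mice carrying *Pdgfb*-iCreER. The last received daily tamoxifen in the first postnatal days, and whether the other mice received it is not given in the sources used here. *Pdgfb*-iCreER acts in ECs, so other cells of that library keep β-catenin. The shared background was C57BL/6, each library pooled mice of 1 genotype, and WT mice came from other litters than the knockouts. Genotype and library therefore cannot be told apart in any comparison below, and no test across libraries was possible.

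In Notch signaling, a Delta-like or Jagged ligand on 1 cell binds a Notch receptor on its neighbor, whose intracellular part is then cut free and drives transcription with RBPJ. In the growing retinal vasculature, *Dll4* from tip cells is known to activate *Notch1* in the cells behind them and limit sprouting, *Jag1* to oppose *Dll4*, and the Hey and Hes repressors to act as targets and to promote arterial fate. *Nrarp* is a feedback target that lowers Notch signaling and is known to link it with Wnt/β-catenin signaling in vessels.

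Promoter sequence was looked up for the members, because RBPJ and the TCF/LEF partners of β-catenin each bind a short core sequence. RefSeq promoter windows (build GRCm38.p6, 250 bases before to 50 bases after the gene's start) were at hand for 7 of the 10 members. Of these, 1 held the RBPJ core (TGGGAA or, on the other strand, TTCCCA), which 25.6% of all 32851 windows hold, and 1 held the TCF/LEF core (CTTTGA or TCAAAG), which 16% hold. They are the windows of *Hey2* (chr10:30842734-30843033, minus strand), with RBPJ cores starting at bases 44 and 248 of the window, and of *Jag1* (chr2:137116471-137116770, minus strand), with a TCF/LEF core at base 275. Both are shown 5′ to 3′ on the gene's strand, with the core matches in capitals. Such a match is a description of the letters only.
Hey2: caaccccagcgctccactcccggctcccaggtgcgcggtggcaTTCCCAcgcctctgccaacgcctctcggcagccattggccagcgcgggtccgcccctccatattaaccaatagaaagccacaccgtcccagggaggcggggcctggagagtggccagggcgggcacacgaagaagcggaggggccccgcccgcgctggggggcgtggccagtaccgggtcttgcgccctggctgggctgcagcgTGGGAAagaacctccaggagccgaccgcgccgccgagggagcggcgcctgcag
Jag1: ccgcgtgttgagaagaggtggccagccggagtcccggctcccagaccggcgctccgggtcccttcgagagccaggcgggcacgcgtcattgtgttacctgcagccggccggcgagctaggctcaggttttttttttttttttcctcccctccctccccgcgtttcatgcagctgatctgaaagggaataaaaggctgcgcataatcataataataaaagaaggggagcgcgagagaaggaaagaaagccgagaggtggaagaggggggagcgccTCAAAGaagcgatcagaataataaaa

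The libraries held 9951 (WT), 14426 (*Tspan12* KO) and 9151 (*Ctnnb1* cKO) barcodes with 37008362 to 137114957 unique molecular identifiers (UMIs, each marking 1 captured transcript), and 18 to 31 barcodes were shared by a pair of libraries after filtering. ECs numbered 538, 290 and 2711, with median depths of 15785, 14580.5 and 3346 UMIs, and all 12 EC markers were detected in each library. They lay in 4 clusters: 1 led by *Slc38a5* held 513 of the WT and 213 of the *Tspan12* KO ECs but 46 of the *Ctnnb1* cKO ECs, whereas 1 led by *Ifitm3* and *Cd74* held 5, 60 and 1774. Levels are given as CPM, the UMIs of a gene for every 1000000 UMIs of the same cells, and since 1 transcript gives 1 UMI, genes are compared without regard to length. Intervals in parentheses are at 95%, exact Poisson for levels and exact conditional binomial for log2 ratios, and cover counting error only. The targeted gene *Tspan12* had 95.9 CPM in WT and 84.2 CPM in its knockout, and *Ctnnb1* had 523 CPM in WT and 443 CPM in its conditional knockout, all in ECs. Whether the 3′ ends counted here lie in the deleted parts is not given, so these values check the labels neither way.

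Endothelial Notch genes were first followed in all ECs of each library. In *Ctnnb1* cKO ECs *Jag1* was lower than in WT and *Hey1* higher, the only members past the fold there, which 16.4% of all genes passed higher and 25.4% lower. In *Tspan12* KO ECs 0 members passed it, against 8.39% of all genes higher and 9.09% lower. A member was counted as past the fold at a difference of at least 1.5-fold with an interval that left out a log2 ratio of 0, among genes with at least 50 UMIs in the ECs of both libraries together.

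Of the ligands, WT ECs held *Dll4* (ENSMUSG00000027314) at 98.4 CPM (93.6 to 103), those of *Tspan12* KO at 108 CPM (99.7 to 116) and those of *Ctnnb1* cKO at 109 CPM (104 to 115). The levels overlapped within counting error between the knockouts and lay little above WT, at log2 ratios of 0.13 (−0.0024 to 0.26) and 0.15 (0.050 to 0.26). For *Jag1* (ENSMUSG00000027276) the WT level of 62.4 CPM (58.6 to 66.4) lay between 85.9 CPM (78.9 to 93.4) in *Tspan12* KO ECs and 36.9 CPM (33.7 to 40.4) in those of *Ctnnb1* cKO. None of these intervals overlapped, and the log2 ratios to WT were 0.46 (0.31 to 0.61) for *Tspan12* KO but −0.76 (−0.92 to −0.60) for *Ctnnb1* cKO. *Jag2* (ENSMUSG00000002799) was at 52.2, 60.9 and 67.3 CPM in WT, *Tspan12* KO and *Ctnnb1* cKO ECs, the order used from here on, and its log2 ratios of 0.22 (0.044 to 0.40) and 0.37 (0.23 to 0.51) both lay above 0.

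Of the receptors, *Notch1* (ENSMUSG00000026923) had the highest level of all members in ECs of each library, at 179, 242 and 257 CPM. It lay above WT in both knockout libraries, with log2 ratios of 0.44 (0.35 to 0.53) and 0.52 (0.45 to 0.59). *Notch4* (ENSMUSG00000015468), a receptor found mainly in endothelium, was at 70.7, 71.8 and 102 CPM. Its log2 ratio was 0.022 (−0.14 to 0.18) in *Tspan12* KO, where a difference was not detectable at this depth, and 0.53 (0.42 to 0.65) in *Ctnnb1* cKO.

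Of the targets, *Hes1* (ENSMUSG00000022528) was at 125, 164 and 184 CPM and so above WT in both knockout libraries, with log2 ratios of 0.40 (0.29 to 0.51) and 0.56 (0.48 to 0.65). *Hey1* (ENSMUSG00000040289) was at 16.9, 17.4 and 28.5 CPM, so the *Ctnnb1* cKO library stood above the other two, with log2 ratios of 0.044 (−0.29 to 0.37) and 0.75 (0.52 to 0.98). *Nrarp* (ENSMUSG00000078202) was at 131, 146 and 122 CPM, slightly above WT in *Tspan12* KO at 0.15 (0.041 to 0.27) and slightly below in *Ctnnb1* cKO at −0.11 (−0.20 to −0.014), where TMM scaling, described next, gave 0.035. *Hey2* (ENSMUSG00000019789) and *Heyl* (ENSMUSG00000032744) were near absent from ECs. *Hey2* had 22, 13 and 30 UMIs over all ECs of a library, and *Heyl* had 12, 3 and 20, too few to show a difference for either.

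In *Tspan12* KO, 8 of the 10 members reached 50 UMIs, 0 were past the fold in either direction, and 8.39% of all 12206 genes were past it higher and 9.09% lower. In *Ctnnb1* cKO, 9 members reached 50 UMIs, of which 1 (*Hey1*) was past the fold higher, against 16.4% of all 12801 genes, and 1 (*Jag1*) was past it lower, against 25.4%. The members' counts were thus not above those of all genes. Their median log2 ratio was 0.19 in *Tspan12* KO, where that of all genes was 0.015, and 0.52 in *Ctnnb1* cKO, where that of all genes was −0.12. Both knockouts were set against the same WT library. The *Ctnnb1* cKO counts depended on scaling: with factors from the trimmed mean of M values (TMM) the median of all genes was 0.024 in place of −0.12, the share of higher calls among all calls was 52.1% in place of 39.3%, and 5 members (*Notch1*, *Notch4*, *Hey1*, *Hey2*, *Hes1*) were past the fold higher, with *Jag1* still lower.

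**Figure D1:**
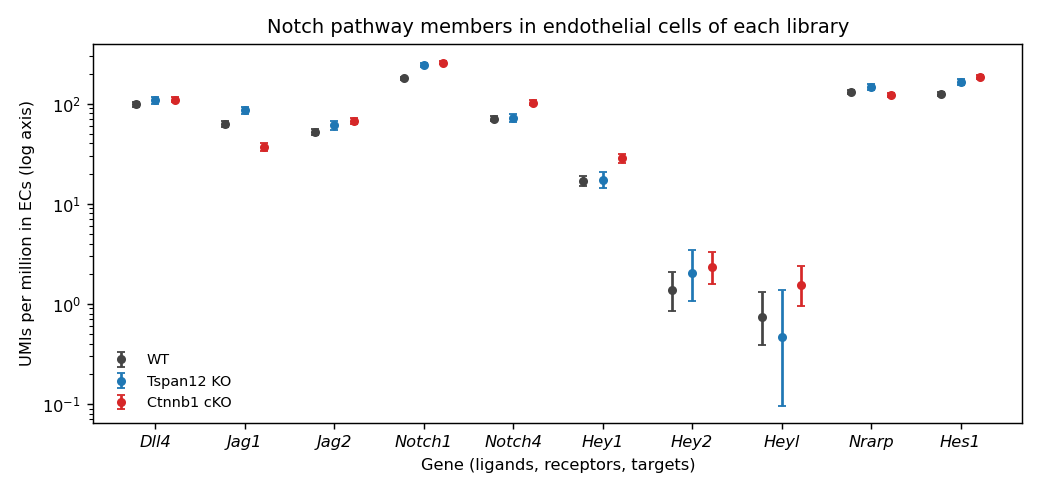
Level of each member in all ECs of the WT, *Tspan12* KO and *Ctnnb1* cKO libraries, in CPM on a log axis; points are the 3 libraries and bars the exact Poisson 95% interval. *Jag1* runs from 36.9 in *Ctnnb1* cKO to 85.9 in *Tspan12* KO, and *Hey2* and *Heyl* lie below 2.4 in every library.

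Cell depth and background RNA were then taken into account. From each cell 2000 UMIs were drawn, which left out 18, 28 and 825 ECs as too shallow, and the share of cells with at least 1 UMI was compared with that in rods. *Jag1* was found in 13.8% (10.99 to 17.1%, exact Clopper-Pearson), 16.8% (12.5 to 21.9%) and 6.36% (5.30 to 7.56%) of ECs, against 2.99%, 2.57% and 1.27% of rods. The *Ctnnb1* cKO share was below both others with separate intervals. *Hey1* was found in 2.5% (1.34 to 4.24%), 3.05% (1.33 to 5.93%) and 5.57% (4.58 to 6.70%) of ECs, and in 1.26%, 1.57% and 1.27% of rods, so its interval left out that of rods only in *Ctnnb1* cKO. *Dll4* was found in 17.5%, 20.2% and 17.7% of ECs and in 0.943%, 0 of 894 cells and 2.53% of rods. The 0 allows a share of up to 0.412%. *Notch1* was found in 31.2%, 38.5% and 37.0% of ECs, but also in 12.4%, 11.97% and 36.3% of rods, so in *Ctnnb1* cKO the share in ECs did not stand out from rods. The rods of WT and *Ctnnb1* cKO lay mostly in different clusters, as given below. *Hey2* was found in 0.192%, 0 of 262 and 0.583% of ECs, at or below its share in rods of 1.01 to 2.52%, so over all ECs it was not told apart from background. The 0 allows up to 1.40%. Without thinning, 59.7%, 65.5% and 14.0% of ECs held *Jag1*, with median depths of 15785, 14580.5 and 3346 UMIs in ECs and of 5992.5, 5116 and 1654.5 UMIs in rods.

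ECs were next split within each library into arterial-like cells (45, 62 and 339), proliferative-like cells (144, 81 and 341) and remaining cells (330, 147 and 2031), with the members left out of the clustering and of the marker lists. A tip-like cluster was found only in WT and held 19 cells. In it *Dll4*, the tip cell ligand, was at 153 CPM, and with fewer than 20 cells it was not compared further. Of 10 arterial markers, 9 passed the naming limit in the WT arterial-like cluster, 6 in that of *Tspan12* KO, and 9 and 8 in a pair of *Ctnnb1* cKO clusters. Their mean log2 fold over other ECs was 3.19, 1.49, 2.76 and 2.52, so the *Tspan12* KO cluster was the least distinct, and *Rgs5*, a pericyte gene, and *Glul*, a Muller glia gene, were among its 10 leading genes.

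Most ligands and receptors had their highest level in arterial-like ECs of WT and *Ctnnb1* cKO. In WT, 6 members (*Dll4*, *Jag1*, *Jag2*, *Notch1*, *Notch4*, *Hey1*) were at least 2-fold higher in arterial-like than in other ECs, with an interval that left out 0, against 6.8% of all genes tested. In *Ctnnb1* cKO these were 5 (the same without *Jag1*), against 4.91%, and in *Tspan12* KO 1 (*Hey1*), against 1.37%. *Hey1* had the largest ratio of the members with 50 UMIs in each library. It was at 120.4 CPM in arterial-like and 10.2 CPM in other ECs of WT (11.8-fold). The knockout values were 57.8 and 12.1 CPM (4.76-fold) for *Tspan12* KO, and 174 and 16.8 CPM (10.4-fold) for *Ctnnb1* cKO. *Jag1* was at 208 and 52.9 CPM in arterial-like and other ECs of WT (3.93-fold). In *Tspan12* KO these were 113 and 82.4 CPM (1.37-fold), and in *Ctnnb1* cKO 61.9 and 34.9 CPM (1.77-fold). At subcluster resolution 1.5, which gave 20 arterial-like *Tspan12* KO cells, *Jag1* and *Jag2* were also past 2-fold in that library. At the main resolution the arterial ratio of *Jag1* was thus smaller in both knockout libraries than in WT, with a lower arterial-like level in each and, in *Tspan12* KO, also a higher level elsewhere. For *Dll4* the ratio of arterial-like to other ECs was 2.17, 1.01 and 2.46.

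With a gate of at least 3 arterial marker UMIs per thinned cell in place of clusters, the counts were 2 (*Dll4*, *Jag1*), 1 (*Hey1*) and 1 (*Notch1*) in WT, *Ctnnb1* cKO and *Tspan12* KO. *Hey1* did not reach 50 UMIs in WT (9 inside and 6 outside the gate) or *Tspan12* KO (9 and 1) and was not counted there. Its log2 ratios in these libraries were 2.94 (1.29 to 4.71) and 5.52 (2.67 to 10.97). *Nrarp* and *Hes1* had no arterial excess. *Nrarp* was lower in arterial-like ECs, with log2 ratios of −0.70 (−1.04 to −0.38) and −0.99 (−1.40 to −0.61) in WT and *Tspan12* KO, and of −0.14 (−0.44 to 0.14), an interval that includes 0, in *Ctnnb1* cKO. In WT *Nrarp* was at 148 CPM (139 to 157) in proliferative-like and 119 CPM (110 to 127) in remaining ECs, and in *Tspan12* KO at 159 CPM (146 to 174) and 150.0 CPM (135 to 166), which overlap. *Hes1* had log2 ratios of 0.011 (−0.26 to 0.28), −0.25 (−0.55 to 0.045) and −0.087 (−0.32 to 0.14). *Hey2* was at 16.8 CPM in arterial-like and 1.18 CPM in other ECs of *Ctnnb1* cKO, from 16 and 14 UMIs, which is below the 50 UMIs set as minimum. In WT it had 6 and 16 UMIs, and in *Tspan12* KO 0 and 13, where 0 allows up to 4.96 CPM.

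**Figure D2:**
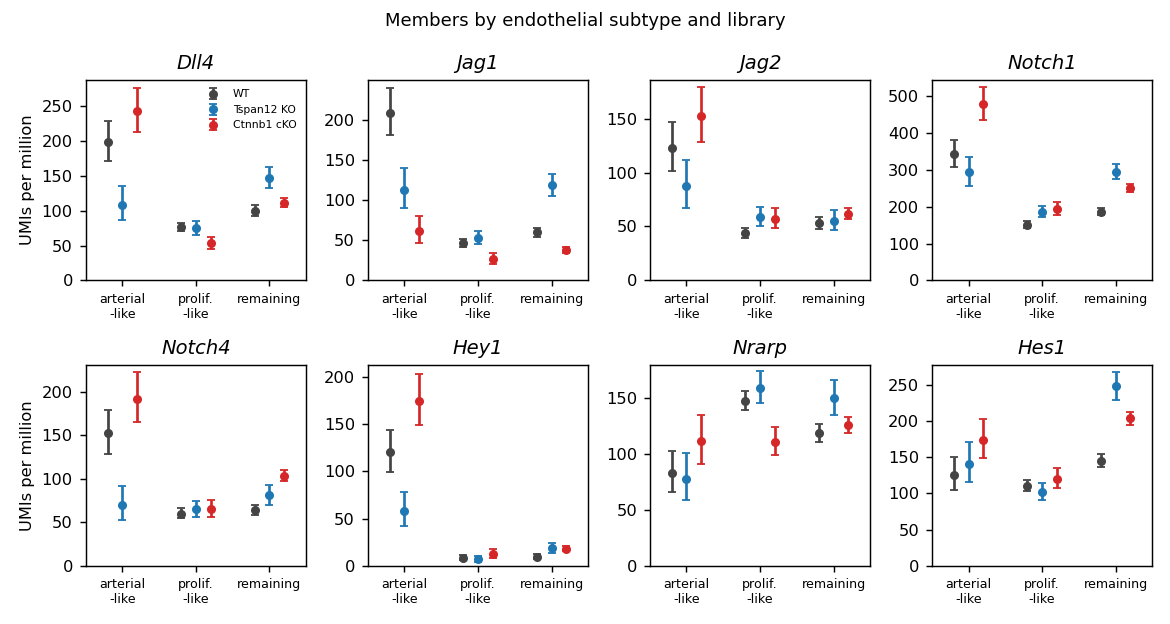
Level of 8 members (all but *Hey2* and *Heyl*) in arterial-like, proliferative-like and remaining ECs of the 3 libraries, in CPM, with exact Poisson 95% intervals. *Hey1* peaks in the arterial-like cells of every library, and *Jag1* is at 208 in those of WT, 113 in those of *Tspan12* KO and 61.9 in those of *Ctnnb1* cKO.

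A second view, without clusters, ordered ECs by their UMIs of arterial markers at 2000 UMIs per cell. ECs with at least 3 such UMIs were 16.3%, 16.4% and 16.01% of all, so their share was close to equal between libraries. From ECs with 0 arterial UMIs to those with at least 6 (33, 13 and 131 cells), *Hey1* went from 6.22 to 90.9 CPM in WT and from 10.02 to 195 CPM in *Ctnnb1* cKO. The WT values rest on 3 and 6 UMIs. Their intervals of 1.28 to 18.2 CPM and 33.4 to 198 CPM overlap those of *Ctnnb1* cKO, 5.94 to 15.8 CPM and 145 to 256 CPM. In *Tspan12* KO, ECs with 0 arterial UMIs had 0 *Hey1* UMIs, which allows up to 17.1 CPM. Those with at least 6 had 5 *Hey1* UMIs, or 192 CPM (62.4 to 449). *Dll4* went from 93.4 to 394 CPM in WT and from 69.6 to 240.5 CPM in *Ctnnb1* cKO. *Jag1* went from 60.2 to 364 CPM in WT, but from 27.3 to 68.7 CPM in *Ctnnb1* cKO. In *Tspan12* KO, *Jag1* was at 125 CPM already in the 108 ECs with 0 arterial UMIs, above the 60.2 CPM (40.3 to 86.4) of the same group in WT.

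**Figure D3:**
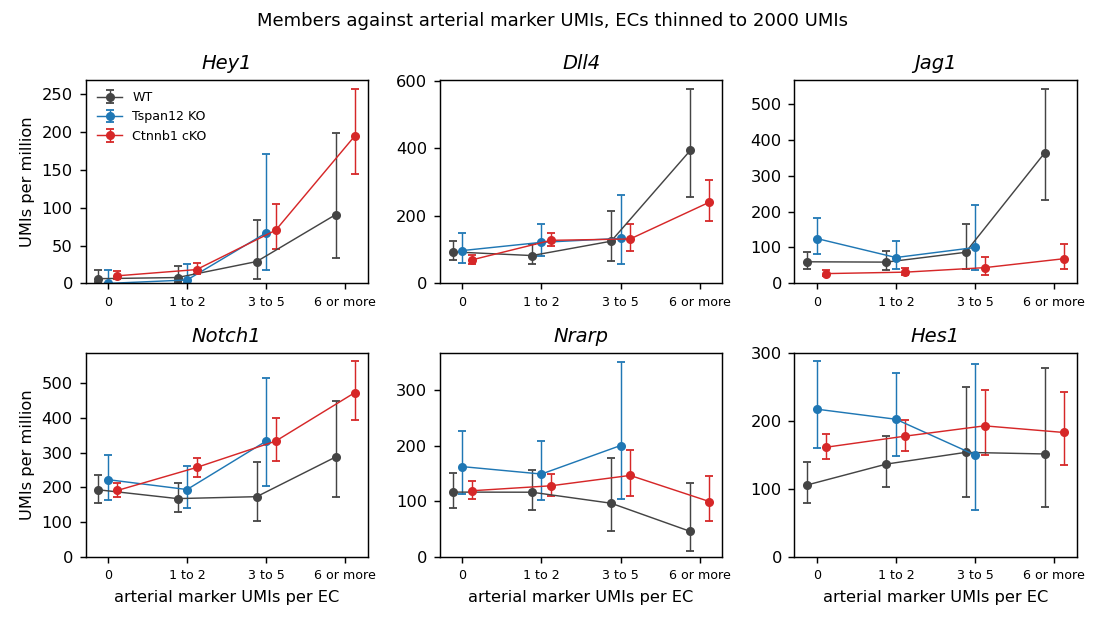
Level of 6 members, in CPM, in ECs grouped by their UMIs of arterial markers at 2000 UMIs per cell, for the 3 libraries, with exact Poisson 95% intervals; the highest *Tspan12* KO group, with under 20 cells, is not drawn. *Jag1* in the highest group is at 364 in WT and 68.7 in *Ctnnb1* cKO. The *Hey1* points of *Ctnnb1* cKO lie above those of WT, but their intervals overlap in every group, with 3 to 6 *Hey1* UMIs per WT group.

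Tip cell markers were used in the same way. ECs with at least 3 tip marker UMIs made up 14.6%, 18.3% and 15.1% of the libraries' ECs. *Dll4* was higher in them than in other ECs in each library, at 171 against 101 CPM, 198 against 93.5 CPM and 135 against 103 CPM. These are log2 ratios of 0.76 (0.066 to 1.40), 1.08 (0.21 to 1.90) and 0.39 (0.0089 to 0.75), which overlap, so a difference between the libraries was not shown. In *Ctnnb1* cKO *Hey1* was lower in the tip gate, at 15.8 against 34.0 CPM, a log2 ratio of −1.11 (−2.28 to −0.13). In WT and *Tspan12* KO the tip gate held 2 *Hey1* UMIs each, and the log2 ratios of −0.15 (−3.34 to 1.99) and 0.16 (−3.12 to 2.48) showed no difference at this depth.

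The knockouts were then set against WT within each subtype. In *Tspan12* KO, *Jag1* and *Hey1* lay below WT in arterial-like ECs and above it in remaining ECs. In arterial-like ECs, 4 of 8 members with 50 UMIs (*Dll4*, *Jag1*, *Notch4*, *Hey1*) were past the fold lower and 0 higher, against 17% and 8.46% of all genes. *Hey1* was at 57.8 CPM and 120.4 CPM in WT, a log2 ratio of −1.06 (−1.60 to −0.54), and *Notch4* at 69.9 and 152 CPM, a log2 ratio of −1.12 (−1.61 to −0.66). *Dll4* had a log2 ratio of −0.87 (−1.26 to −0.49) and *Jag1* of −0.88 (−1.27 to −0.51). In remaining ECs, 4 of 8 (*Jag1*, *Notch1*, *Hey1*, *Hes1*) were past the fold higher and 0 lower, against 15.3% and 8.82% of all genes. There *Jag1* was at 118 CPM and 59.7 CPM in WT, a log2 ratio of 0.99 (0.77 to 1.20), and *Hes1* at 248 and 145 CPM, a log2 ratio of 0.78 (0.63 to 0.92). In proliferative-like ECs 0 of 8 members were past the fold, with 6.37% of all genes higher and 9.57% lower. With the gate of at least 3 arterial marker UMIs in place of clusters, *Hey1* and *Notch4* were not lower. *Hey1* was at 105 CPM in *Tspan12* KO and 52.9 CPM in WT, from 9 UMIs each. *Notch4* was at 140 and 112 CPM, from 12 and 19 UMIs. *Dll4* was at 128 and 229 CPM in the gate, and *Jag1* at 116 and 194 CPM. The least distinct arterial-like cluster was that of *Tspan12* KO (above), and its part in the lower arterial values was not tested.

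The higher values in remaining *Tspan12* KO ECs came with 1 subcluster. It held 68 cells led by *Six3*, *Six3os1*, *Slco1a4* and *Nkd1*, and WT had no such subcluster. In it *Hes1* was at 292 CPM, *Notch1* at 329.5 CPM, *Dll4* at 169 CPM and *Jag1* at 129 CPM, the highest level of *Hes1*, *Notch1*, *Dll4* and *Jag1* among the 5 subclusters of the library. With these cells left out, a choice made once the data had been seen, the log2 ratio of *Hes1* in all *Tspan12* KO ECs turned from 0.40 to −0.16 (−0.30 to −0.019) and that of *Dll4* from 0.13 to −0.26 (−0.42 to −0.095). *Jag1* then went from 0.46 to 0.13 (−0.060 to 0.31), with an interval that includes 0, and *Notch1* kept 0.20 (0.094 to 0.31). In *Ctnnb1* cKO a subcluster of 404 cells led by *Zbp1*, *H2-Eb1*, *Nkd1* and *Six3* had *Hes1* at 198 CPM, and 1 of 352 cells led by *Slco1a4* and *Nox4* had *Hes1* at 286 CPM and *Jag1* at 74.9 CPM. The latter was the highest *Jag1* level outside the arterial-like cells of that library.

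In *Ctnnb1* cKO, *Jag1* was past the fold lower in all 3 groups of ECs. In arterial-like ECs it was at 61.9 CPM and 208 CPM in WT, a log2 ratio of −1.75 (−2.19 to −1.33), in proliferative-like ECs at 26.7 and 46.7 CPM, −0.81 (−1.19 to −0.43), and in remaining ECs at 37.3 and 59.7 CPM, −0.68 (−0.89 to −0.47). The background of genes past the fold lower was 22%, 21.6% and 24.1%. The arterial-like cells of this library differed among themselves: 287 cells led by *Dkk2* and *Bmx* had *Jag1* at 45.7 CPM, while 52 cells led by *Mgp* and *Fbln5* had it at 172 CPM, near the 208 CPM of WT, whose arterial-like cluster was also led by *Mgp*. *Hey1* was alike in both, at 173 and 180.2 CPM. *Hey1* and *Notch4* were past the fold higher in remaining ECs, at log2 ratios of 0.94 (0.52 to 1.38) and 0.70 (0.54 to 0.87), where 16.8% of all genes were. In arterial-like ECs *Hey1* had a log2 ratio of 0.53 (0.18 to 0.89), *Notch1* of 0.48 (0.28 to 0.69) and *Dll4* of 0.29 (0.0094 to 0.57). In proliferative-like ECs *Dll4* had a log2 ratio of −0.52 (−0.79 to −0.25) and *Nrarp* of −0.41 (−0.60 to −0.22), neither past the fold. Without the proliferative-like ECs, *Hey1* in all *Ctnnb1* cKO ECs was at 0.45 (0.19 to 0.70), no longer past the fold. Within only the *Slc38a5*-led cluster of most WT ECs, where 46 *Ctnnb1* cKO ECs lay, *Hey1* had a log2 ratio of −0.16 (−3.21 to 1.72) and *Jag1* of −0.45 (−1.77 to 0.60), so neither difference was detectable there. Proliferative-like ECs, in which *Hey1* is low, made up 26.8% of WT and 12.6% of *Ctnnb1* cKO ECs. Their weight in the summed UMIs was larger, at 45.8% of all EC UMIs of the WT library. The *Ctnnb1* cKO library had 20.7% of its EC UMIs in such cells, and the *Tspan12* KO library 48.8%.

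**Figure D4:**
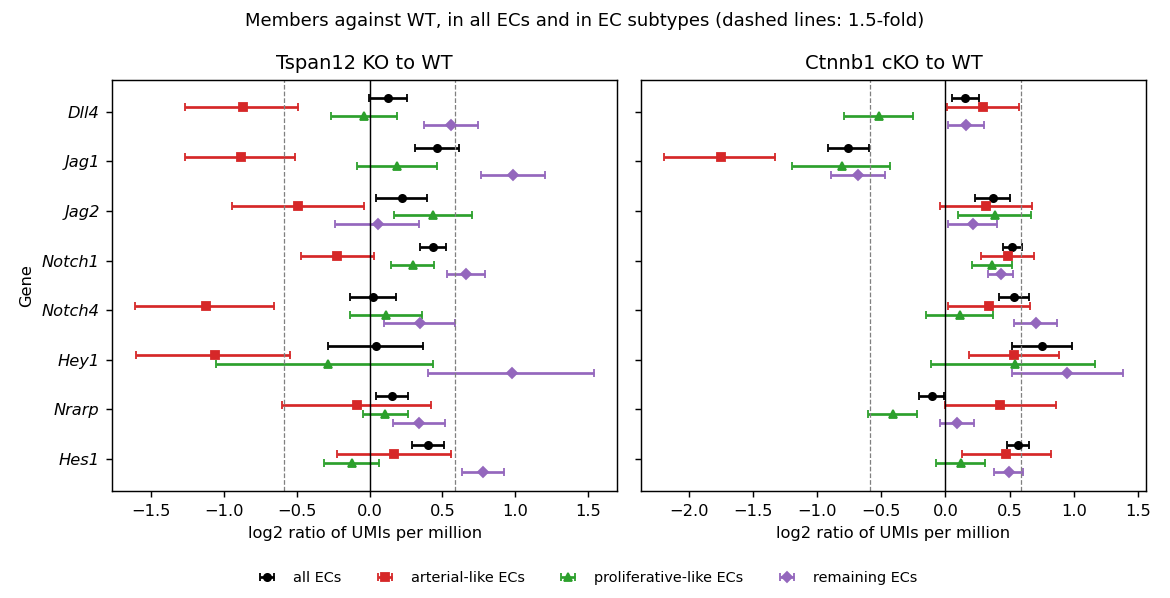
Log2 ratio of each knockout library to WT for 8 members, in all ECs and in arterial-like, proliferative-like and remaining ECs, with exact conditional binomial 95% intervals; dashed lines mark 1.5-fold. In *Tspan12* KO the arterial-like points of *Dll4*, *Jag1*, *Notch4* and *Hey1* lie left of 0 and the remaining points right of it, and in *Ctnnb1* cKO all *Jag1* points lie left of 0.

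Cell classes outside the endothelium were described to see where each member was found. *Dll4*, *Jag1*, *Jag2*, *Notch4*, *Hey1* and, narrowly, *Nrarp* had their highest level in ECs in WT and *Tspan12* KO, among 11 and 14 classes with at least 20 cells. In *Ctnnb1* cKO the same held for *Dll4*, *Jag2*, *Notch4* and *Hey1*, whereas *Jag1* in ECs came after mural cells and *Nrarp*, narrowly, after Muller glia and mural cells. *Jag1* was at 50.4 CPM in mural cells, from 24 UMIs, and 36.9 CPM in ECs. *Nrarp* was at 133 CPM in Muller glia, 128 CPM in mural cells and 122 CPM in ECs. This order was not tested. *Dll4* was at 98.4 CPM in WT ECs and next at 23.6 CPM in neurogenic precursors, which are known to express Delta ligands. Of all *Dll4* UMIs in the cells kept, 79.4%, 54.3% and 87.3% lay in ECs, which held 21.2%, 6.09% and 39.6% of all UMIs. *Jag1* was at 62.4 CPM in WT ECs and next at 8.99 CPM in rods, and 74.6% of its WT UMIs lay in ECs.

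*Notch1* and *Hes1* were more abundant in glia and progenitors than in ECs. *Notch1* was at 373 CPM in Muller glia and 335 CPM in cycling retinal progenitors of WT, against 179 CPM in ECs, and 24.3% of its WT UMIs lay in ECs. *Hes1*, which keeps progenitors undifferentiated, was at 474 CPM in WT astrocytes and 390.1 CPM in WT cycling progenitors, against 125 CPM in ECs. *Hey2* was at 45.7 CPM in WT Muller glia and 1.37 CPM in ECs, and *Heyl* at 62.6 CPM in WT Muller glia and 0.746 CPM in ECs. *Hey1* thus had its highest level in ECs, and *Hey2* and *Heyl* had theirs elsewhere. *Hey1* was not confined to ECs, which held 42.4%, 14.4% and 83.0% of its UMIs. In WT it was at 16.9 CPM in ECs and next at 10.1 CPM in Muller glia.

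In mural cells, the pericytes and smooth muscle cells that wrap vessels and respond to endothelial *Jag1* through *Notch3*, *Heyl* was at 65.0 CPM in *Tspan12* KO (60 cells) and 90.3 CPM in *Ctnnb1* cKO (88 cells). It was at 0.467 and 1.56 CPM in ECs of the same libraries, so *Heyl* set mural cells apart from ECs. *Notch3* was at 161 and 227 CPM against 2.49 and 0.933 CPM, but it was itself a marker used to name the mural class. WT had 13 mural cells and is not described. *Dll4* was at 61.6 and 79.8 CPM in these mural cells, or 57.3% and 72.9% of its EC level, and *Jag1* at 67.5 and 50.4 CPM. The 12 EC markers summed to 64.8% and 65.9% of their EC level in the same mural cells, and to 0.808 to 13.8% in the other classes, so EC transcripts were present in these mural barcodes. *Hey1* in mural cells was at 81.2% of its EC level in *Tspan12* KO and 14.8% in *Ctnnb1* cKO. These rest on 17 and 2 UMIs, the latter too few for a comparison.

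**Figure D5:**
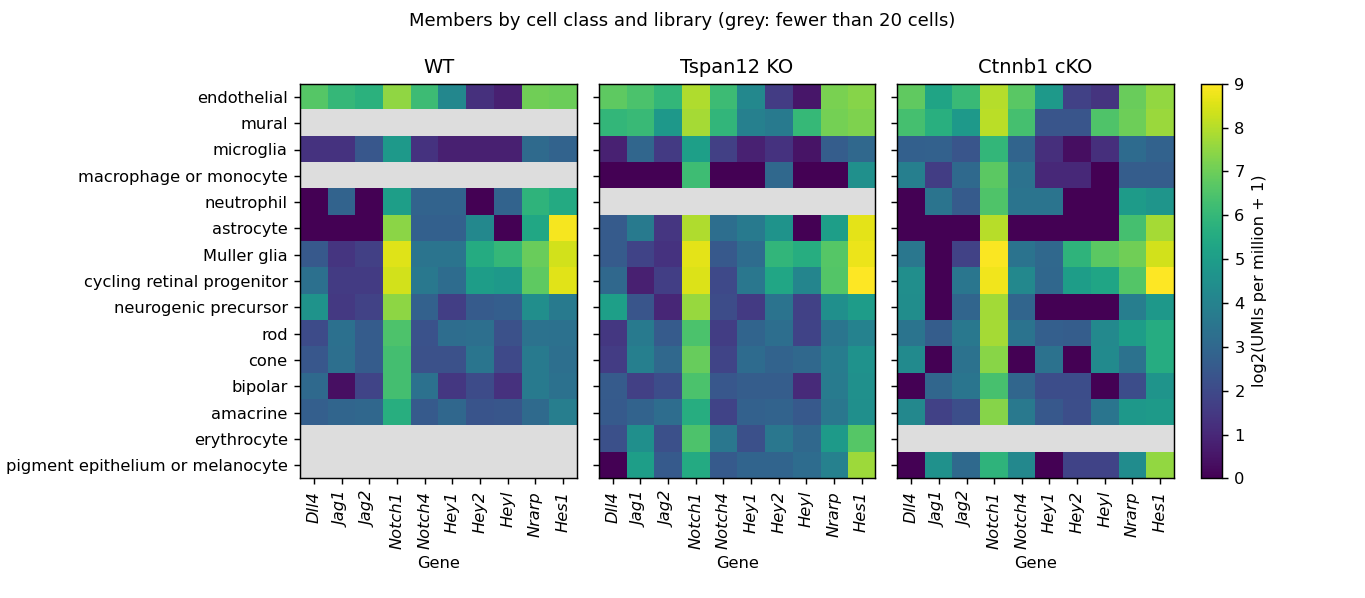
Level of each member by cell class and library as log2(CPM + 1), where grey marks classes with fewer than 20 cells. *Dll4*, *Jag2* and *Notch4* are highest in ECs with mural cells next in the knockout libraries, *Hes1* and *Notch1* are high in Muller glia, astrocytes and progenitors, and *Heyl* is high in mural cells and Muller glia.

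The EC ratios of *Notch1*, *Hes1* and *Jag1* were set beside those in rods, microglia and Muller glia, and for *Hes1* also in neurogenic precursors. EC markers summed to 1.57% of their EC level in WT rods and 5.38% in those of *Ctnnb1* cKO, and to 1.85% and 4.91% in microglia. Rods and microglia were not made up alike in the libraries. A cluster with 10 rod markers past the naming limit held 675 WT and 22 *Ctnnb1* cKO rods, and 1 with 3 held 21 and 1784. A microglia cluster of 1838 *Ctnnb1* cKO cells held 10 WT cells. The ratios below thus set unlike cells side by side, and the part of this was not tested. In *Ctnnb1* cKO, *Notch1* was at 221 CPM in rods and 60.6 CPM in microglia, against 88.1 and 27.6 CPM in WT, log2 ratios of 1.33 (1.19 to 1.46) and 1.13 (0.78 to 1.51) that exceed the 0.52 in ECs. In Muller glia the *Notch1* ratio was 0.41 (0.25 to 0.56), from 409 and 2512 UMIs, which overlaps the 0.52 (0.45 to 0.59) in ECs. In rods *Hes1* was at 46.6 CPM in *Ctnnb1* cKO and 9.37 CPM in WT, a log2 ratio of 2.31 (1.94 to 2.71). *Hes1* in *Ctnnb1* cKO had ratios near 0 in Muller glia, at −0.0049 (−0.19 to 0.18), and in microglia, at −0.021 (−0.85 to 0.87). In neurogenic precursors its ratio was 1.19 (−0.73 to 2.62), from 4 and 64 UMIs, an interval that includes 0. In *Tspan12* KO, *Hes1* had log2 ratios of 0.36 (0.27 to 0.45) in Muller glia and 0.68 (0.27 to 1.09) in rods, beside 0.40 in ECs. In neurogenic precursors of that library its ratio was 1.37 (0.85 to 1.89), from 65 and 64 UMIs. *Notch1* in *Tspan12* KO had 0.080 (−0.012 to 0.17) in Muller glia, −0.027 (−0.17 to 0.12) in rods and 0.27 (−0.20 to 0.73) in microglia, all intervals that include 0, unlike the one in ECs. *Jag1* in *Ctnnb1* cKO had log2 ratios of −0.77 (−1.44 to −0.14) in rods, from 30 and 71 UMIs, and of 2.003 (0.54 to 3.94) in microglia, from 44 and 4 UMIs. Markers of other classes within the ECs moved too: the 8 microglia markers summed to 152, 109 and 688 CPM, the 10 rod markers to 181, 336 and 139 CPM, the 8 erythrocyte markers to 233, 3228 and 318 CPM, and the 12 mural markers to 39.7, 71.1 and 47.8 CPM. All markers of these lists were detected in the ECs of each library. The 9 Muller glia markers, with *Aqp4* at 0 in WT and *Tspan12* KO, summed to 2476, 1883 and 2289 CPM in ECs. The 8 neurogenic precursor markers summed to 770, 532 and 615 CPM. The part of all these markers in the results was not tested, and with an estimated free RNA profile subtracted *Jag1* in *Ctnnb1* cKO kept its side of the fold.

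The other genes of the pathway were read from a list of 44 without the members. In *Tspan12* KO ECs 36 reached 50 UMIs, of which 6 were past the fold higher and 2 lower (8.39% and 9.09% of all genes), with a median log2 ratio of 0.040. In *Ctnnb1* cKO ECs 39 did, of which 11 were past the fold higher and 8 lower (16.4% and 25.4% of all genes), with a median of 0.043, against −0.12 for all genes. Of 8 listed genes for the proteases that cut Notch, 3 were past the fold higher and 3 lower in *Ctnnb1* cKO, and of the 7 with 50 UMIs in *Tspan12* KO, 2 were higher and 1 lower. Those named next have the highest or lowest ratios of the whole list. *Adam10*, which makes the first ligand-induced cut, was at 225, 186 and 68.7 CPM, log2 ratios of −0.27 and −1.71. The γ-secretase subunits *Psen2* and *Aph1b* had log2 ratios of 1.05 and 2.14 in *Ctnnb1* cKO, and *Psenen*, a further subunit, of −0.72 in *Tspan12* KO. Ligands absent from the endothelial set were low in ECs. *Dll1* was at 1.80, 4.51 and 3.42 CPM, with log2 ratios of 1.32 and 0.92, *Dll3* had a log2 ratio of −1.39 in *Ctnnb1* cKO, and *Dner*, a neuronal Notch-binding protein, of −1.78 there and of −0.68 in *Tspan12* KO, the latter not past the fold.

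Among regulators, *Numbl*, a relative of the Notch inhibitor Numb, and *Neurl1b*, a ubiquitin ligase acting on ligands, had log2 ratios of 1.14 and 1.06 in *Tspan12* KO. *Dtx3*, of the Deltex family, was at 16.7 CPM in WT and 45.7 CPM in *Ctnnb1* cKO, a log2 ratio of 1.45. *Hes5*, a target known from neural progenitors, was past the fold lower in both knockouts, with log2 ratios of −0.74 and −0.82. It also led the Muller glia cluster, whose markers summed lower in the ECs of both knockouts (above), and the part of this was not tested. *Rbpj*, the DNA-binding partner of all Notch receptors, was at 35.6, 39.4 and 44.3 CPM, log2 ratios of 0.15 and 0.32 that did not reach the fold. *Notch2* was at 11.3, 14.2 and 8.79 CPM and *Notch3*, the mural receptor, at 1.99, 2.49 and 0.933 CPM in ECs, far below *Notch1*.

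Genes that varied most like each member were looked up over the 20 EC subclusters with at least 20 cells, among 10311 genes, by Pearson's r of log2(CPM + 10). The points share libraries and depth, so r is a description only. *Hey1* was most like *Tmem100* (r = 0.951), *Bmx* (0.948) and *Serpinf1* (0.945), of which *Bmx* is an arterial marker. *Dll4* was most like *Tox3*, *Sipa1l2* and *Cpne3* (0.914 to 0.919), *Notch1* like *Dag1*, *Cgnl1* and *Heg1* (0.916 to 0.930), and *Notch4* like *Dync1h1*, *Akap9* and *Crybg3* (0.912 to 0.922). *Jag1* was most like *Polb*, *Cacfd1* and *Tek* (0.869 to 0.886), and *Jag2* like *Atp8b1*, *Ltbp4* and *Stmn2* (0.889 to 0.898). *Hes1* was most like *Pmaip1*, *Tspan13* and *Ubl3* (0.843 to 0.886). *Nrarp* had the weakest likeness, to *Sgf29*, *Mospd3* and *Bik* (0.633 to 0.717).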

How the data were processed

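The deposited matrices hold unnormalized UMI counts for each gene and barcode. The authors' counting tool was Cell Ranger (version 8.0.1 in the matrix headers, another in the methods). The processing notes name GRCm39 and the methods another build, so no gene coordinates were taken from the files. Filters were a minimum of 250 genes and 500 UMIs and a maximum of 15% mitochondrial UMIs, with the highest Scrublet scores removed (0.8% per 1000 cells; scanpy version 1.11.5). This left 8989, 12732 and 8451 cells. Cells were clustered on 2000 variable genes without the members (30 components, 20 neighbors, leidenalg version 0.10.2, resolution 1) and named from fixed markers; names mean cells like that class. ECs were subclustered within each library. That step, and the required mean marker log2 fold (0.5 for classes, 1 for subtypes), were set after the data were seen, because joint subclusters split by library. UMIs were summed per library and group. A count of 0 allows up to 3 counts. TMM factors came from edgeR version 4.0.16. With 1 library per group no p-value is given. Named genes are the members, their 3 most alike genes each, and, of the other pathway genes, the 3 highest and 3 lowest ratios per knockout with *Notch2*, *Notch3*, *Dll1* and *Rbpj*, beside markers and leading genes where a name is checked. The members and lists were chosen with earlier results of these data known. Counting and ratio steps were tested on simulated data. Of the 13 alternatives to the EC ratios, 1 that left out a further subcluster, also chosen after the data were seen, is counted but not reported here.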

Additional observations from a re-analysis of the deposited data

Results flagged for a closer look

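In ECs, 2 members lay on opposite sides of WT in the 2 knockout libraries, each with an interval that left out 0. *Jag1* lay above WT in *Tspan12* KO, at a log2 ratio of 0.46, but below WT in *Ctnnb1* cKO, at −0.76. Without the 68 *Six3*-led ECs the former was 0.13 (−0.060 to 0.31), an interval that includes 0. *Nrarp* lay above WT in *Tspan12* KO, at 0.15, but below WT in *Ctnnb1* cKO, at −0.11, and with TMM scaling the latter was 0.035 (−0.060 to 0.13). These differences between the libraries were not tested, since each knockout has 1 library and both share the WT control.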

How the results depend on the processing

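No paired analysis was possible because each group has 1 library, and no replicate could be left out. In *Tspan12* KO, 0 members were past 1.5-fold higher, which became 1 with every EC thinned to 2000 UMIs and 2 without proliferative-like ECs, and 0 were past it lower under all 13 alternatives. The members' median log2 ratio of 0.19 moved to 0.42 with the marker gate and 0.017 without the *Six3*-led ECs. In *Ctnnb1* cKO the median of 0.52 moved to 0.66 with TMM, 0.90 with the marker gate and 0.064 in only the cluster of most WT ECs. The 1 member past the fold higher became 5 with TMM, 4 with a mean over cells, 6 with the marker gate, 2 with free RNA subtracted, and 0 both without proliferative-like ECs and in only the cluster of most WT ECs. The 1 member past it lower, *Jag1*, became 0 with the marker gate and in the cluster of most WT ECs. *Jag1* in *Ctnnb1* cKO stayed below WT under all 13 alternatives, from −1.30 with thinning to −0.40 (−1.04 to 0.26) with the marker gate. *Hey1* in *Ctnnb1* cKO turned to −0.16 (−3.21 to 1.72) in the cluster of most WT ECs, which holds 46 *Ctnnb1* cKO ECs. Members at least 2-fold higher in arterial-like ECs went from 6 to 2 in WT and from 5 to 1 in *Ctnnb1* cKO with the arterial marker gate. In *Tspan12* KO that gate gave 1 member, *Notch1* in place of *Hey1*, and the count went from 1 to 3 at subcluster resolution 1.5 and to 0 without doublet removal. Subclusters made over all libraries held 0 WT and 4 *Tspan12* KO arterial-like cells and gave no value there. The causes of these shifts were not tested. Leaving out the *Six3*-led or *Eln*-led cells, keeping only the cluster of most WT ECs, and joint subclusters were chosen after the data were seen. The marker gate kept 117, 43 and 828 cells, of which 66, 33 and 806 lay in EC clusters. Its WT and *Tspan12* KO values thus rest in good part on cells not named ECs. At these depths *Hey2* and *Heyl* in ECs, and ratios in subtypes of under 100 cells, allow only large differences to be seen.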
